A study of Saccharomyces cerevisiae with 72 samples.

Results

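Haploid budding yeast with both mitotic checkpoints intact, labelled 4 h in nocodazole, were compared with the same cultures labelled 0 h. Nocodazole is a drug that depolymerizes microtubules and prevents assembly of the spindle. The members were chosen from the sample labels alone, and they were 6 of 72 libraries of poly(A)-selected RNA. They comprised 3 libraries of strain 2587 (*MAD1 BUB2*, genotype given as WT) labelled nocodazole, 30 °C and 4 h, and 3 libraries of that strain with the same treatment and temperature labelled 0 h. The strain is a *MATa* W303 haploid and represents 1 clone, grown in 3 replicate cultures that were each sampled at both times. In the growth, treatment and methods descriptions, the drug dose (15 µg/mL at the start and 7.5 µg/mL more every 4 h) is given for *mad1Δ bub2Δ* cells and not separately for strain 2587.

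Where a comparison was needed, 6 other sets of 3 libraries were used. The same *MAD1 BUB2* cultures were sampled again at 8 h. *MATa mad1Δ bub2Δ* cells (strain 41994), which lack the spindle checkpoint and the spindle position checkpoint, were sampled at 4 and 0 h in nocodazole and at 0 h with DMSO, the drug's solvent. *MATα cdc24-1 swe1Δ cdc20-1* cells (strain 42001) were sampled at 4 and 0 h at 37 °C without nocodazole. In these cells the *cdc20-1* allele blocks anaphase at the restrictive temperature, *cdc24-1* blocks budding, and *SWE1* is deleted. *MAD1 BUB2* cells with DMSO are not among the 72 libraries, so the effect of 4 h in the drug and that of 4 h in culture cannot be told apart within this strain.

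When kinetochores lack microtubules, the spindle checkpoint proteins, Mad1 among them, hold back Cdc20, the activator of the anaphase-promoting complex (APC). The APC marks securin (Pds1) and the mitotic cyclins for destruction, so a cell with an active checkpoint stays in metaphase with replicated DNA and active mitotic cyclin-dependent kinase. Bub2 acts in a second checkpoint that blocks the mitotic exit network until the spindle has entered the bud. Transcription follows the same cycle in budding yeast. Mcm1 and Fkh2 with Ndd1 drive the G2/M genes of the *CLB2* cluster, Swi5 drives M/G1 genes once mitotic kinase activity drops, SBF and MBF drive G1/S genes, and the histone genes are expressed in S phase. Many M/G1 genes encode enzymes that cut the wall between mother and daughter.

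Promoters of 2 of the 3 genes that moved most in the G2/M list are shown, since the factors of that list bind there. Each is the stretch from 400 to 101 bases before the start codon, on the gene's own strand, read from the RefSeq genome of build R64. Capitals mark the Mcm1 core CCNNNNNNGG and the forkhead heptamer TAAACAA, or its reverse complement TTGTTTA. *DBF2* lies at chrVII:667789-668088 (plus strand) and *HST4* at chrIV:841937-842236 (plus strand), both given as the position of the window.
*DBF2*: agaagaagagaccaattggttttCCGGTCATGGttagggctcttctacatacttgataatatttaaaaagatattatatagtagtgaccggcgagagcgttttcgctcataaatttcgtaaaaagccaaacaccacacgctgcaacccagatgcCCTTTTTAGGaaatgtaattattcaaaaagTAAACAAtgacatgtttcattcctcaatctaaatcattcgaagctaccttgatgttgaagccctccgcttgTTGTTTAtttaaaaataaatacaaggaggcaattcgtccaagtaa
*HST4*: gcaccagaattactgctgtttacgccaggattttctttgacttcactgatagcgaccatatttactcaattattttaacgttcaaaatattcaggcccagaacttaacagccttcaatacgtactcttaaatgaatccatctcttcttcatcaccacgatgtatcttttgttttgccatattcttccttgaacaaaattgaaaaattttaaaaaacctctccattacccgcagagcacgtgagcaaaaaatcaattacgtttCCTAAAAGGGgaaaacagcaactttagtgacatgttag

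Matches to short motifs are descriptions of these windows and not binding sites. The forkhead heptamer was in 12 of 20 promoters of the G2/M list (60.0%) against 11.3% of 6020 promoters of the same length, and the Mcm1 core in 13 of 20 (65.0%) against 35.0% of all. The MCB hexamer ACGCGT was in 20 of 33 promoters of the G1/S list (60.6%) and in 3.94% of all. The Pdr1/Pdr3 element TCCGNGGA was in 6 of 14 promoters of the drug efflux list and in 2.03% of all. All motifs were searched on both strands, and matches of different motifs could overlap.

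The 4 h libraries held 6878425 to 7475784 counts and the 0 h libraries 5496061 to 8337155. Ribosomal RNA features took 1.69 to 1.95% of counts at 4 h against 0.731 to 0.947% at 0 h, and mitochondrially encoded features 0.142 to 0.184% against 0.035 to 0.0392%. Levels are counts scaled to a common library total (CPM) after TMM scaling over the 72 libraries, and they are compared between samples and not between genes. *MAD1* averaged 97.7 ± 4.94 CPM at 4 h and 96.5 ± 4.97 CPM at 0 h (SD, n = 3 each). In *mad1Δ bub2Δ* cells in nocodazole it averaged 31.1 ± 7.74 CPM at 4 h and 26.3 ± 3.23 CPM at 0 h, and *BUB2* was at 0 counts. The *BUB2* counts match the label, whereas the *MAD1* counts do not show a deletion of the whole gene, and counts per gene do not tell which part of it they cover. The cells are called *mad1Δ bub2Δ* here as in their labels. The *MATa* transcript *HMRA1* was present in *MAD1 BUB2* cells (1099 counts at 4 h and 803 at 0 h, summed over 3 libraries), and *HMLALPHA1* had 0 counts at both times. The count covers reads of all cells in a culture, so a change in the share of cells at one stage and a change in RNA per cell cannot be told apart.

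Mean DNA content per cell, measured by the authors in the same cultures, was 115, 112 and 110 kAU (arbitrary units with the prefix kilo) at 4 h, against 82.3, 81.6 and 81 kAU at 0 h. The times did not overlap. The mean was 112 ± 2.4 kAU at 4 h and 81.6 ± 0.649 kAU at 0 h (SD, n = 3 each), a ratio of 1.37. The difference was 30.5 kAU, with a two-sided exact permutation p of 0.1, the smallest that 3 against 3 cultures allow. *mad1Δ bub2Δ* cells in nocodazole averaged 239 ± 37.7 kAU at 4 h and 102 ± 4.79 kAU at 0 h. At 8 h *MAD1 BUB2* cells averaged 96.9 ± 1.14 kAU, below their mean at 4 h. The description of these cells as arrested in mitosis was set against lists of stage-specific genes. Of the genes called, those of the G2/M list were all higher at 4 h and those of the M/G1 and histone lists all lower, as given below, but the mitotic cyclin gene *CLB2* was not called and the securin gene *PDS1* fell.

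The libraries labelled 0 h were not alike in the drug-treated and the solvent-treated cultures, and this bears on every comparison with 0 h. *SNQ2*, which encodes a drug efflux pump of the plasma membrane, averaged 6608.5 ± 1960.8 CPM in the *mad1Δ bub2Δ* libraries labelled nocodazole and 0 h, against 340.9 ± 80.4 CPM in those labelled DMSO and 0 h (log2 difference 4.28 ± 0.28, SE, edgeR adjusted p = 1.8e-12). Of 14 genes of the drug efflux regulon 12 were higher with the nocodazole label and 0 lower, against 7.14% and 9.69% of 6025 genes tested. All 24 ribosome biogenesis genes were lower. The *MAD1 BUB2* libraries at 0 h had *SNQ2* at 5232, 6271.9 and 5335.1 CPM, in the range of the drug-labelled *mad1Δ bub2Δ* libraries (4 h levels and this comparison are in the plot of efflux genes). Whether cells had been in the drug when collected at 0 h is not stated in the sources used here, and the part of this state in the changes from 0 to 4 h was not tested. None of 20 G2/M genes differed between the labels by edgeR (1 at an unadjusted p under 0.05, 0 by DESeq2 and 0 by limma), and none of 11 histone genes (0 unadjusted, 0 by DESeq2 and 1 by limma).

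In all, 2328 of 6025 genes tested (38.6%) differed between 4 h and 0 h at a Benjamini-Hochberg adjusted p under 0.05 by edgeR's quasi-likelihood test, 1249 higher at 4 h (20.7%) and 1079 lower (17.9%). At least a 2-fold change was seen in 951 of them, 642 higher and 309 lower. The levels of the 4 h and 0 h libraries did not overlap for 62.9% of genes. Compared by limma on log2(TPM + 1), with TPM being abundances corrected for gene length, 2280 genes were higher and 399 lower, and the median of all genes moved to 0.36 on the log2 scale, against 0.02 in the edgeR fit. A gene or list with a small change is therefore to be read against that shift, and a count of list members against the shares of all genes called higher or lower.

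Genes of the G2/M list rose at 4 h where they changed. Of the 20 genes 8 rose and none fell, against 20.7% and 17.9% of all genes. The median log2 change of the list was 0.43. *KIN3*, a protein kinase gene, had 143.9, 144.8 and 144 CPM at 4 h, against 24.9, 32.4 and 46.1 CPM at 0 h. It was higher in every 4 h library, by 2.07 on the log2 scale (SE 0.29, adjusted p = 1.5e-06). *DBF2*, which encodes a kinase of the mitotic exit network, had 159, 172.5 and 172 CPM at 4 h, against 71, 75.4 and 72.7 CPM at 0 h (log2 change 1.21 ± 0.19, SE, adjusted p = 4.9e-06). The 3 libraries of each time lay close together. *CLB1*, a mitotic cyclin gene, had 46.8, 54.1 and 56.8 CPM at 4 h, against 24.9, 24.4 and 29.2 CPM at 0 h. *CDC20*, the APC activator that the checkpoint inhibits, had 88, 93.2 and 99.7 CPM at 4 h, against 45.5, 42.5 and 59.2 CPM at 0 h. Neither gene's times overlapped, and the log2 changes were 1.02 (adjusted p = 0.0094) and 0.94 (adjusted p = 0.00057). *HST4* (1.21) and *IQG1* (0.70), a component of the contractile ring, also rose. The number of G2/M genes that rose was 6 or 7 when single libraries were left out. *TEM1* (0.77), the GTPase of the exit network, lost its call when either the first 4 h library or the second 0 h library was left out (adjusted p = 0.054 and 0.078).

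The gene that gives the cluster its name was not among those that rose. *CLB2*, the main mitotic cyclin, had 59.7, 68.1 and 73 CPM at 4 h, against 70.8, 71.9 and 70.6 CPM at 0 h. The times overlapped (log2 change -0.07 ± 0.23, SE, adjusted p = 0.83). *SWI5* and *CDC5*, which encode the M/G1 activator and the polo kinase, had log2 changes of 0.44 and 0.09 and were not called (adjusted p = 0.21 and 0.76). In the fit on the 6 compared libraries alone 14 of the 20 genes were called higher. That fit called more genes of every kind, 1738 higher and 1667 lower, against 1249 and 1079 in the main fit.

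The G2/M list moved differently in *mad1Δ bub2Δ* cells. There 0 of 20 rose and 7 fell between 0 and 4 h in nocodazole, against 13.3% and 10.9% of all genes tested. The change in *MAD1 BUB2* cells was the higher one for 13 of 20 genes and the lower one for none, against 13.6% and 12.0% of all genes. These comparisons share the *MAD1 BUB2* libraries with that of 4 h and 0 h. *CLB2* averaged 23.4 ± 8.96 CPM at 4 h and 60.7 ± 7.36 CPM at 0 h in *mad1Δ bub2Δ* cells, and its change was 1.32 log2 units higher in *MAD1 BUB2* cells (adjusted p = 0.0032). *DBF2* averaged 46.7 ± 18.2 CPM at 4 h and 99 ± 20.2 CPM at 0 h there, a difference in change of 2.31 (adjusted p = 2.4e-07). The changes in *cdc24-1 swe1Δ cdc20-1* cells, which are stopped at the same stage by another route, differed for *KIN3* alone of the 20 genes, against 14.2% higher and 10.8% lower among 6148 genes tested over 72 libraries. With the compared libraries alone 10 of the 20 had the higher change in *MAD1 BUB2* cells, as had 1266 genes in all, against 871 in the main fit.

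**Figure D1:**
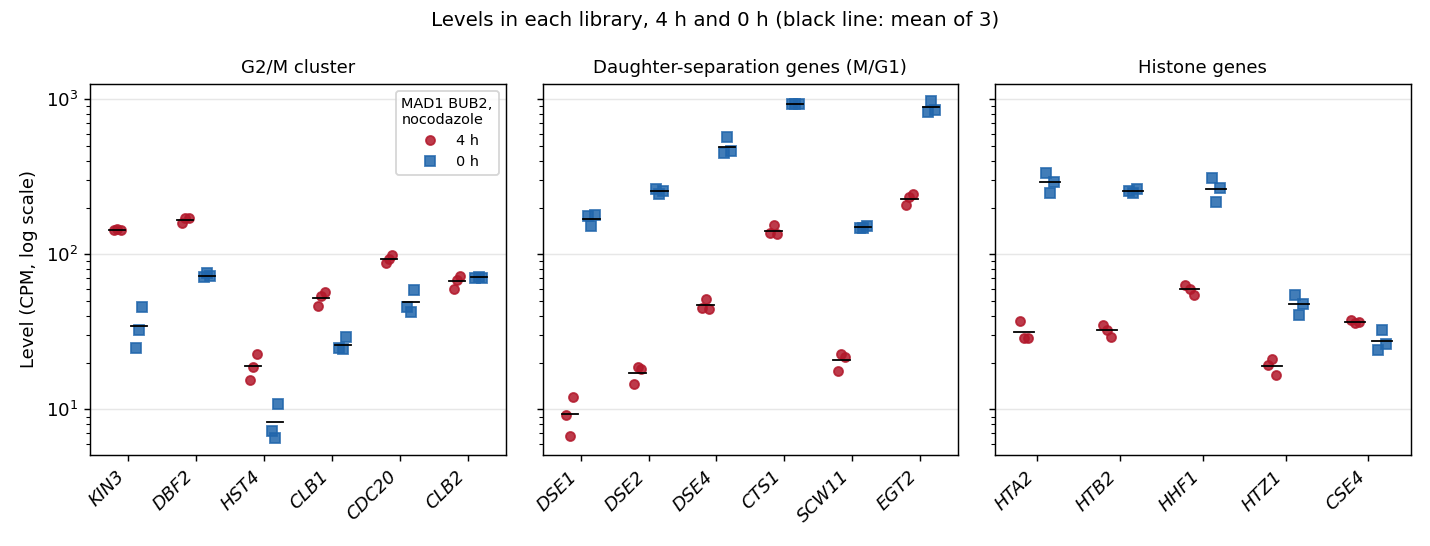
Levels in CPM (log scale) of genes of the G2/M list, the M/G1 list and the histones in each *MAD1 BUB2* library, 4 h as circles and 0 h as squares, with the mean of 3 as a black line. *KIN3* lay at 143.9 to 144.8 CPM at 4 h against 24.9 to 46.1 CPM at 0 h, *DSE1* at 6.71 to 12 CPM at 4 h against 152.4 to 180.6 CPM at 0 h, and *HTB2* at 29.4 to 35.2 CPM at 4 h against 247.6 to 265.9 CPM at 0 h, while *CLB2* overlapped between the times.

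Genes of cell separation at the end of mitosis fell most. Of 18 genes in the M/G1 list 13 fell and none rose, against 17.9% and 20.7% of all genes. The median log2 change of the list was -1.92. The list summed to 1769 to 1868 CPM at 4 h against 4789 to 5182 CPM at 0 h. *DSE1*, a daughter-specific gene of cell wall metabolism, had 9.18, 6.71 and 12 CPM at 4 h, against 176.2, 152.4 and 180.6 CPM at 0 h. It fell by 4.18 on the log2 scale (SE 0.30, adjusted p = 8.3e-12), to a level 18.1 times lower. *DSE2*, a secreted glucanase-like protein of daughter cells, had 14.5, 18.9 and 18.1 CPM at 4 h, against 262.8, 244.5 and 257.1 CPM at 0 h. The log2 change was -3.88 ± 0.23 (SE, adjusted p = 1e-13). *DSE4*, an endoglucanase gene, had 45.3, 51.6 and 44.6 CPM at 4 h, against 448.9, 571.7 and 462.5 CPM at 0 h. *CTS1*, the chitinase that cuts the septum, had 138.3, 153.7 and 135.1 CPM at 4 h, against 929.5, 932.9 and 935.3 CPM at 0 h. These libraries were all far apart between times, and the log2 changes of *DSE4* and *CTS1* were -3.38 and -2.70. *SCW11*, *EGT2*, *BUD9* and *AMN1*, the last an antagonist of mitotic exit made in daughters, fell by 2.84, 1.95, 2.50 and 2.17.

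The 5 genes of the list that were not called included 2 Swi5 targets of early G1. *SIC1*, the inhibitor of mitotic cyclin-dependent kinase, had 41.9, 48.5 and 44.5 CPM at 4 h, against 54.3, 56.7 and 58.2 CPM at 0 h. The 4 h libraries lay below the 0 h libraries, and the log2 change of -0.32 ± 0.15 (SE) had an adjusted p of 0.092. *ASH1*, the daughter-cell repressor of *HO*, had 241.2, 265.3 and 266.3 CPM at 4 h, against 209.8, 242.8 and 227 CPM at 0 h, and its times overlapped.

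The M/G1 list fell in the other cells too. Between 0 and 4 h 14 of 18 fell and 0 rose in *mad1Δ bub2Δ* cells, against 10.9% and 13.3% of all genes. Another 12 fell and 1 rose in *cdc24-1 swe1Δ cdc20-1* cells, where 41.2% of all genes were called, 20.9% lower and 20.3% higher. *DSE1* averaged 53.4 ± 38.5 CPM at 4 h and 187.5 ± 5.99 CPM at 0 h in *mad1Δ bub2Δ* cells (SD, n = 3 each), so these 4 h libraries were spread widely. Its fall was larger in *MAD1 BUB2* cells by 2.36 log2 units (adjusted p = 3.1e-05). Differences of this kind were called for 9 of 18 genes. The change in *MAD1 BUB2* cells was the lower one for 7 and the higher one for 2, against 12.0% and 13.6% of all genes. The falls at 4 h were partly undone later, since 14 of 18 genes were higher at 8 h than at 4 h and none lower, against 17.0% and 16.7% of all genes. This comparison and that with 0 h share the 4 h libraries. *CTS1* averaged 845.4 ± 91.8 CPM and *DSE1* 82.7 ± 10.8 CPM at 8 h.

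**Figure D2:**
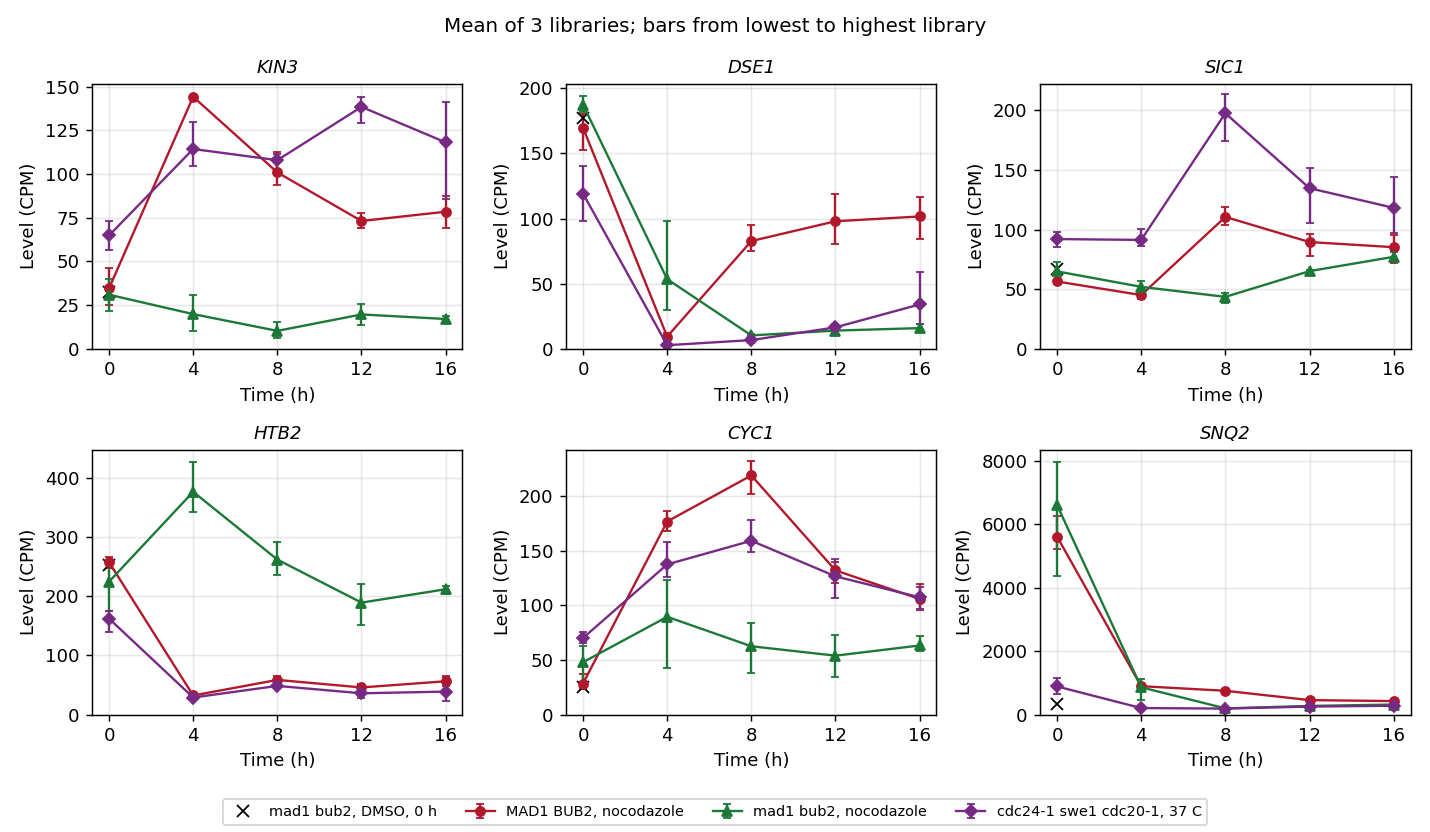
Mean levels in CPM of 6 genes from 0 to 16 h, with bars from the lowest to the highest of 3 libraries, in *MAD1 BUB2* and *mad1Δ bub2Δ* cells in nocodazole and in *cdc24-1 swe1Δ cdc20-1* cells at 37 °C, and at 0 h with DMSO for *mad1Δ bub2Δ* cells. In *MAD1 BUB2* cells *DSE1* averaged 169.7 CPM at 0 h, 9.28 CPM at 4 h and 82.7 CPM at 8 h, and *HTB2* averaged 257.2, 32.3 and 58.6 CPM at these times, while *HTB2* in *mad1Δ bub2Δ* cells was at 376 CPM at 4 h.

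Histone genes fell together. Of 11 genes 10 fell and none rose, against 17.9% and 20.7% of all genes. The median log2 change of the list was -1.70. In all 10 every 4 h library lay below every 0 h library, while 62.9% of all genes did not overlap in either direction. *HTA2*, a histone H2A gene, had 37.3, 29 and 29 CPM at 4 h, against 332.6, 249.7 and 294.2 CPM at 0 h (log2 change -3.19 ± 0.26, SE, adjusted p = 6.8e-11). *HTB2*, for H2B, had 35.2, 32.3 and 29.4 CPM at 4 h, against 258.1, 247.6 and 265.9 CPM at 0 h. It fell by 2.98 (adjusted p = 1e-13). *HTZ1*, the H2A.Z variant, fell less, by 1.31, and *CSE4*, the centromeric histone H3 variant, had 37.6, 35.9 and 36.9 CPM at 4 h, against 24.2, 32.4 and 26.3 CPM at 0 h, and was not called (log2 change 0.42, adjusted p = 0.10). The library was poly(A)-selected, and near-identical histone copies can share reads, so single copies are less certain than the list. Of the stretches of 75 bases in *HTA2*, *HTB2*, *HTZ1* and *CSE4*, 0% recurred exactly elsewhere in the genome. Shorter stretches were not searched.

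Histone genes did not fall in *mad1Δ bub2Δ* cells, in which 5 of 11 rose and none fell, against 13.3% and 10.9% of all genes. *HTB2* averaged 376 ± 45.3 CPM at 4 h and 224.3 ± 44 CPM at 0 h there, and the change in *MAD1 BUB2* cells was 3.72 log2 units lower (adjusted p = 1.1e-12). All 10 genes that fell in *MAD1 BUB2* cells had a lower change there than in *mad1Δ bub2Δ* cells, against 12.0% of all genes. In *cdc24-1 swe1Δ cdc20-1* cells 8 of 11 fell and 1 rose, against 20.9% and 20.3% of all genes. The change in *MAD1 BUB2* cells was lower than there for 7 of 11 and higher for none, against 10.8% and 14.2% of all genes. That number of 7 was 5 to 8 when single libraries were left out. From 4 to 8 h, 9 of 11 rose in *MAD1 BUB2* cells, against 17.0% of all genes, and *HTB2* rose to 58.6 ± 7.17 CPM.

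Of 33 G1/S genes 7 fell at 4 h, a share close to the 17.9% of all genes, and none rose, against 20.7% of all. *RNR1*, the large subunit of ribonucleotide reductase, had 139.6, 167.6 and 149.7 CPM at 4 h, against 386.6, 296.1 and 328.7 CPM at 0 h. The times did not overlap, and the log2 change was -1.13 ± 0.24 (SE, adjusted p = 0.00032). *POL30*, the replication clamp PCNA, had 66.9, 48.4 and 64.1 CPM at 4 h, against 152.6, 122.8 and 126.6 CPM at 0 h (log2 change -1.15). *CLN1*, a G1 cyclin, fell by 1.02, as did *SWE1*, the inhibitor of mitotic entry (by 1.05). The median of the list was -0.25, and 26 genes were not called. The count that fell was 16 with the 6 compared libraries alone, where 1667 genes in all were lower. It was 4 by limma on log2(TPM + 1), where 399 were lower. Among 25 cyclin and transcription factor genes 3 rose (*CLB1*, *CDC28* and *CLN3*) and 5 fell (*YHP1*, *SWE1*, *CLN1*, *WHI5* and *SWI6*), the last count being close to the share of all genes. Of 14 licensing genes 2 rose, a share below that of all genes, and 1 when either the first or the third 4 h library or the second or the third 0 h library was left out. *MCM5* (0.72), a subunit of the replicative helicase, rose. *ORC1* (-0.46) was called lower but not without the first library of either time.

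Most genes of the APC and mitotic exit were not called. Of 29 genes 5 rose and 3 fell, both shares below those of all genes (20.7% and 17.9%). *PDS1*, securin, had 11.8, 9.79 and 11.2 CPM at 4 h, against 33.9, 33 and 26.3 CPM at 0 h. It fell by 1.49 (SE 0.26, adjusted p = 3.3e-05), while in *mad1Δ bub2Δ* cells it averaged 26.5 ± 2.98 CPM at 4 h and 24.5 ± 10.1 CPM at 0 h. The difference in change was -1.60 (adjusted p = 0.0012). In *cdc24-1 swe1Δ cdc20-1* cells *PDS1* averaged 8.6 ± 0.87 CPM at 4 h and 24.7 ± 5.58 CPM at 0 h. *CDH1*, the APC activator of G1, fell by 0.77, and *SPO12*, a regulator of exit, rose by 0.97. Of 12 spindle checkpoint genes none rose and 2 fell, a share close to that of all genes (*BFA1*, -0.71, and *SGO1*, -0.45). *BFA1* lost its call when single libraries were left out, and the number of checkpoint genes that fell then ranged from 0 to 2.

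Genes of the spindle itself fell or were not called, apart from 2. Of 28 tubulin and microtubule genes 8 fell and 2 rose, against 17.9% and 20.7% of all genes. The number that fell was 4 by limma on log2(TPM + 1), where 399 genes in all were lower. *KIP1*, a kinesin-5 motor that slides spindle microtubules, had 29.4, 23.8 and 24.8 CPM at 4 h, against 60.7, 69.3 and 68.1 CPM at 0 h (log2 change -1.34 ± 0.18, SE, adjusted p = 4.2e-07). *CIN8*, the other kinesin-5, had 29.7, 39.2 and 39.6 CPM at 4 h, against 74.9, 66.9 and 84.8 CPM at 0 h (log2 change -1.05). Both motors were lower in every 4 h library. *TUB2*, the only beta-tubulin gene, had 338.8, 332.2 and 332.3 CPM at 4 h, against 487.5, 496.8 and 496.1 CPM at 0 h. Its log2 change of -0.55 ± 0.13 (SE, adjusted p = 0.0013) shrank to -0.19 (adjusted p = 0.33) by limma on log2(TPM + 1). *TUB3*, a minor alpha-tubulin, fell by 1.02, and shares its position with a feature on the other strand. *CIN1*, a tubulin folding cofactor, had 23.9, 35.2 and 36 CPM at 4 h, against 17.8, 15.7 and 19.2 CPM at 0 h.

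Of 12 spindle pole body genes 5 fell, among them *SPC110*, which tethers the gamma-tubulin complex to the inner face of the pole. It had 50.8, 58.6 and 50.6 CPM at 4 h, against 106.9, 110.7 and 108.9 CPM at 0 h (log2 change -1.02). *SPC42*, the crystalline core of the pole body, was called as well (-1.03), though not by limma on log2(TPM + 1) (-0.64, adjusted p = 0.062). In addition 3 of 10 genes of the DASH ring, which couples kinetochores to microtubules, and 3 of 9 cohesin genes fell and none rose, and the cohesin count was 1 when one library was left out. These falls are to be read against the 17.9% of all genes that fell. By limma on log2(TPM + 1) they numbered 1 for the pole body, 1 for the DASH ring and 0 for cohesin. With the 6 compared libraries alone, where 1667 genes in all were lower, the cohesin count was 6. *AXL2*, a landmark of axial budding, had 38.1, 38 and 37.8 CPM at 4 h, against 126.4, 146.5 and 129.3 CPM at 0 h. It was the largest fall among 18 septin and polarity genes (log2 change -1.81), of which 4 fell and 1 rose, against 17.9% and 20.7% of all genes. The number of these that fell was 2 by limma and 8 with the compared libraries alone.

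**Figure D3:**
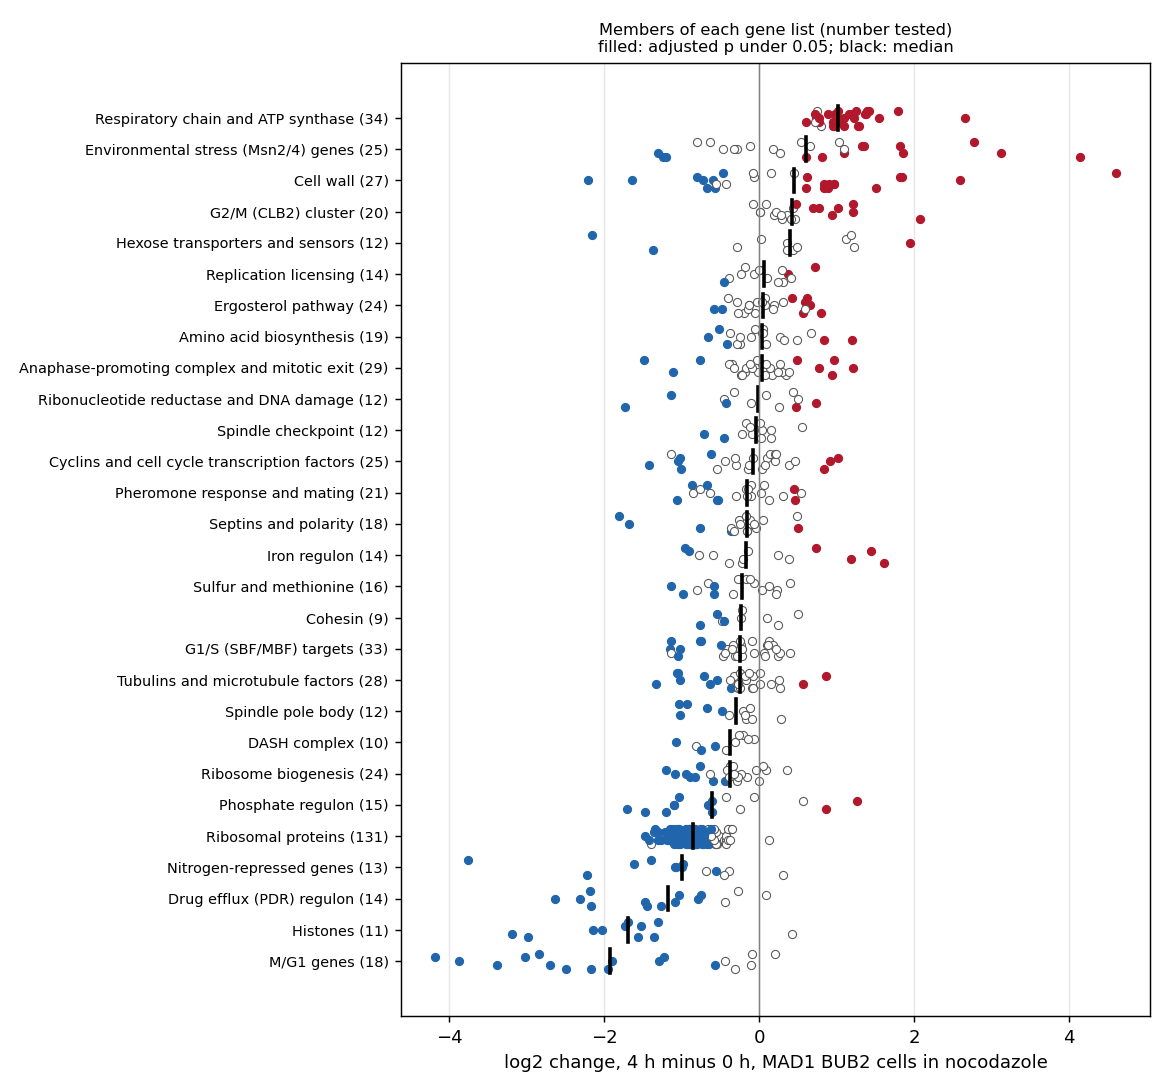
The log2 change at 4 h against 0 h of each member of 28 gene lists in *MAD1 BUB2* cells, filled where the adjusted p was under 0.05, with the median of each list as a black bar and lists in order of their medians. The M/G1 list lay lowest (median -1.92) with histones next (-1.70), and the respiratory chain lay highest (1.02).

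Drug efflux genes fell at 4 h from the high levels of the 0 h libraries described above. Of 14 genes regulated by Pdr1 and Pdr3 11 fell and none rose, against 17.9% and 20.7% of all genes. The list summed to 4387 to 4806 CPM at 4 h against 13850 to 16650 CPM at 0 h. *SNQ2* had 842.6, 900 and 948.7 CPM at 4 h, below every 0 h library (log2 change -2.63 ± 0.26, SE, adjusted p = 2.8e-09). *PDR5*, the main pump of the family, had 2347.4, 2430.1 and 2601.9 CPM at 4 h, against 5678.5, 6655 and 5546.6 CPM at 0 h. *YOR1*, another pump, had 269.8, 273 and 289.9 CPM at 4 h, against 1191.9, 1457.8 and 1133.8 CPM at 0 h. The times did not overlap for either (log2 changes -1.26 and -2.17). *SNG1*, which confers resistance to nitrosoguanidine and is not one of the 14 listed genes, had 72.8, 64.2 and 66 CPM at 4 h, against 1354.7, 1580.2 and 1203.2 CPM at 0 h, and fell by 4.34 (adjusted p = 7.1e-12). In *mad1Δ bub2Δ* cells at 0 h it averaged 1321.7 ± 646.9 CPM with the nocodazole label and 30.1 ± 7.18 CPM with the DMSO label. Of the 14 genes 12 fell between 0 and 4 h in *mad1Δ bub2Δ* cells too, against 10.9% of all genes. *SNQ2* averaged 862.8 ± 348 CPM there at 4 h and 752.1 ± 27.6 CPM in *MAD1 BUB2* cells at 8 h. In *cdc24-1 swe1Δ cdc20-1* cells, without nocodazole, it averaged 207.3 ± 32.2 CPM at 4 h and 889.3 ± 253.8 CPM at 0 h. The difference between its changes in these and *MAD1 BUB2* cells was not called (adjusted p = 0.25, edgeR). Of the 14 genes 5 fell and 2 rose in *cdc24-1 swe1Δ cdc20-1* cells, against 20.9% and 20.3% of all genes. The change in *MAD1 BUB2* cells was lower for 7 and higher for 1, against 10.8% and 14.2% of all genes.

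**Figure D4:**
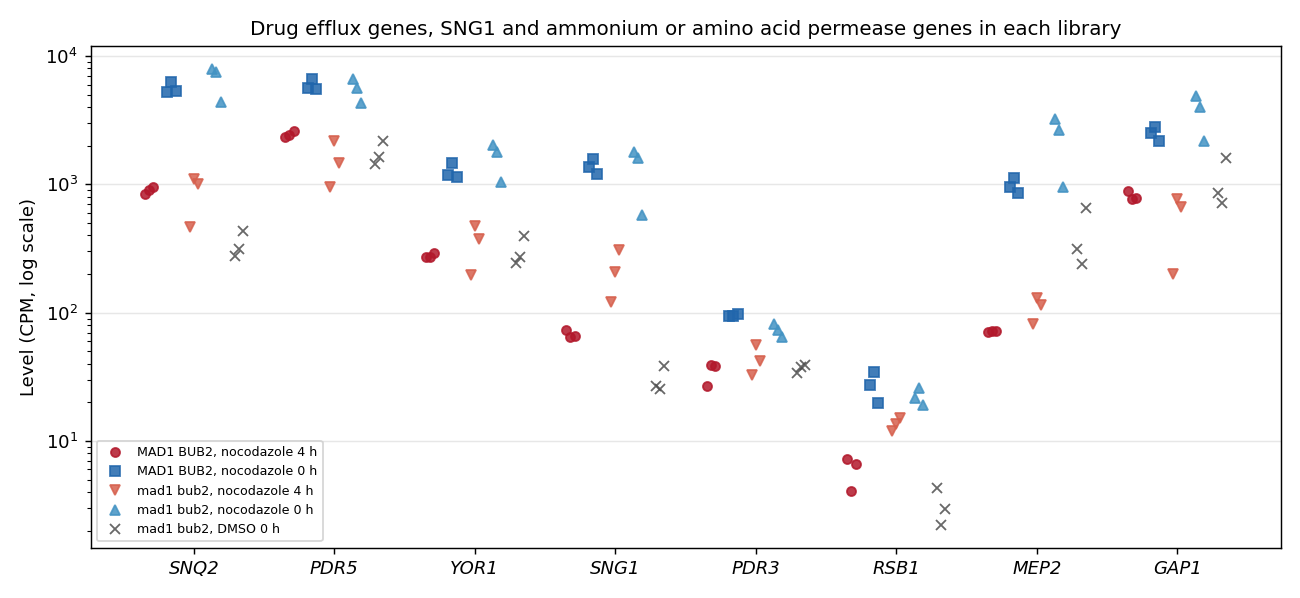
Levels in CPM (log scale) of 5 drug efflux genes, *SNG1* and 2 nitrogen permease genes in each library, for *MAD1 BUB2* and *mad1Δ bub2Δ* cells in nocodazole at 4 and 0 h and *mad1Δ bub2Δ* cells with DMSO at 0 h. *SNQ2* lay at 842.6 to 948.7 CPM in *MAD1 BUB2* cells at 4 h against 5232 to 6271.9 CPM at 0 h, and averaged 340.9 CPM with DMSO.

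Genes that nitrogen represses also fell. Of 13 nitrogen-repressed genes 9 fell and none rose, against 17.9% and 20.7% of all genes. At 0 h 8 of 13 were higher with the nocodazole label than with the DMSO label, against 7.14% of all genes. That number was 4 with the compared libraries alone. *MEP2*, an ammonium permease, had 71.3, 71.8 and 72.3 CPM at 4 h, against 947.7, 1118.1 and 859.7 CPM at 0 h (log2 change -3.75 ± 0.33, SE, adjusted p = 3e-10). *GAP1*, the general amino acid permease, had 886.7, 771.6 and 780.7 CPM at 4 h, against 2501.3, 2814.6 and 2189.5 CPM at 0 h, and *AGP1* fell by 2.22. Neither permease overlapped between times. In the phosphate regulon 9 of 15 genes fell and 2 rose, against the same shares of 17.9% and 20.7%. The number called lower was 5 by limma on log2(TPM + 1), as it was for the nitrogen list. *PHO12*, an acid phosphatase that shares most of its sequence with *PHO11*, fell by 1.70. Among 12 hexose transporter and sensor genes *HXT4*, a glucose transporter, had 405.4, 357.5 and 316.9 CPM at 4 h, against 92.5, 79.6 and 111.2 CPM at 0 h (log2 change 1.94), whereas *HXT2* and *HXT5* fell. *HXT5* was low at both times, at 1.17 to 1.26 CPM at 4 h and 3.76 to 8.52 CPM at 0 h.

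Genes of respiration rose as a group. Of 34 nuclear genes for the respiratory chain and ATP synthase 31 rose and none fell, against 20.7% and 17.9% of all genes. For all 34 every 4 h library lay above every 0 h library, while 62.9% of all genes did not overlap in either direction. The 34 genes summed to 7984 to 8362 CPM at 4 h against 3996 to 4028 CPM at 0 h, with a median log2 change of 1.02. *CYC1*, the main cytochrome c, had 186.1, 175.1 and 168.2 CPM at 4 h, against 37.3, 24.5 and 23.3 CPM at 0 h (log2 change 2.66 ± 0.33, SE, adjusted p = 1.6e-07). *CYT1*, cytochrome c1, had 497.1, 466.2 and 482.3 CPM at 4 h, against 131.7, 156.8 and 133.5 CPM at 0 h. *ATP1*, a subunit of ATP synthase, had 1022.4, 1004.3 and 945.4 CPM at 4 h, against 677.6, 653.4 and 644 CPM at 0 h. The times were apart for each (log2 changes of *CYT1* and *ATP1* 1.79 and 0.60). The share of mitochondrially encoded counts, given above, was also higher at 4 h. In *mad1Δ bub2Δ* cells 11 of 34 rose and 1 fell, against 13.3% and 10.9% of all genes. The change in *MAD1 BUB2* cells was higher for 14 genes and lower for none, against 13.6% and 12.0% of all genes. In *cdc24-1 swe1Δ cdc20-1* cells 24 of 34 rose, against 20.3% of all genes. A higher change in *MAD1 BUB2* cells was called for 5 genes, close to the 14.2% of all genes. That number was 10 with the compared libraries alone, where 1266 genes in all had a higher change.

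Stress genes did not move as one. Of 25 genes driven by Msn2 and Msn4, 10 rose and 3 fell, against 20.7% and 17.9% of all genes, so the falls were below that share. *HSP12*, a membrane-associated heat shock protein, had 32.1, 38.3 and 36.4 CPM at 4 h, against 1.93, 2.13 and 1.99 CPM at 0 h, and rose by 4.14 (SE 0.42, adjusted p = 4.5e-09). *HSP26*, a small chaperone, had 26.9, 26 and 33.2 CPM at 4 h, against 1.5, 4.09 and 3.98 CPM at 0 h (log2 change 3.12). *TPS2*, an enzyme of trehalose synthesis, had 264, 251.5 and 271.4 CPM at 4 h, against 546.5, 683.2 and 598.3 CPM at 0 h (log2 change -1.20). The first 2 genes were far below their 8 h levels, since *HSP12* averaged 1060.9 ± 311.6 CPM and *HSP26* 375.7 ± 35 CPM then. From 4 to 8 h 20 of the 25 genes rose and none fell, against 17.0% and 16.7% of all genes. None of the 25 changes was called different from that in *mad1Δ bub2Δ* cells by edgeR, with 2 at an unadjusted p under 0.05, 1 by DESeq2 and 5 by limma. In *cdc24-1 swe1Δ cdc20-1* cells 5 of 25 rose and 15 fell between 0 and 4 h, against 20.3% and 20.9% of all genes. The change in *MAD1 BUB2* cells was higher than there for 12 and lower for none, against 14.2% and 10.8% of all genes. That number of 12 was 6 to 14 when single libraries were left out. It was 20 with the compared libraries alone, where 1266 genes in all had a higher change.

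Cell wall genes were split as well. Of 27 genes 13 rose and 8 fell, against 20.7% and 17.9% of all genes. *PIR3*, a wall protein of the Pir family, had 369.6, 380.7 and 375.9 CPM at 4 h, against 8.37, 16 and 21.4 CPM at 0 h, and rose by 4.61 (SE 0.55, adjusted p = 7.9e-08). *PST1*, a wall protein induced by wall damage, had 1235.2, 1181.1 and 1148.4 CPM at 4 h, against 160.1, 227.6 and 210.5 CPM at 0 h (log2 change 2.59). The times did not overlap. *GSC2*, the alternative glucan synthase (1.51), and *SED1*, an abundant wall protein (1.84), rose too. *GAS3*, of the Gas family of wall enzymes, had 53.7, 48.8 and 48.7 CPM at 4 h, against 227, 248.7 and 228 CPM at 0 h, and fell by 2.21, and *SCW4*, a glucanase-like wall protein, fell by 1.64. *PST1* in *mad1Δ bub2Δ* cells averaged 375.2 ± 257.6 CPM at 4 h and 488.3 ± 131.1 CPM at 0 h, a difference in change of 2.97 (adjusted p = 5.2e-05).

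Transcripts of the ribosome fell. Of 131 ribosomal protein genes tested (132 were listed) 107 fell and none rose, against 17.9% and 20.7% of all genes. In 128 every 4 h library lay below every 0 h library, while 62.9% of all genes did not overlap in either direction. Together the ribosomal protein genes took 9.63 to 10.2% of counts at 4 h against 14.2 to 16.8% at 0 h. Their median log2 change was -0.85. *RPL3*, which has no paralog, had 4230.6, 4131.1 and 4061.8 CPM at 4 h, against 7394.8, 6892.6 and 7742.2 CPM at 0 h (log2 change -0.81 ± 0.16, SE, adjusted p = 0.00012). *RPL16A* had 531.04, 527.33 and 476.05 CPM at 4 h, against 1419.7, 1151.7 and 1373.6 CPM at 0 h, but as most ribosomal protein genes come in near-identical pairs, single copies are uncertain. In *mad1Δ bub2Δ* cells 97 of 131 rose and none fell over the same interval, against 13.3% and 10.9% of all genes. The change in *MAD1 BUB2* cells was lower for 129 genes, against 12.0% of all genes. In *cdc24-1 swe1Δ cdc20-1* cells 64 of 131 fell and 4 rose, against 20.9% and 20.3% of all genes. The group took 8.37 to 10.4% of counts there at 4 h against 12.2 to 12.8% at 0 h. The change in *MAD1 BUB2* cells was lower than there for 10 genes and higher for none, against 10.8% and 14.2% of all genes. That number of 10 was 33 with the compared libraries alone, where 1124 genes in all had the lower change. The levels at 0 h in *mad1Δ bub2Δ* cells themselves differed with the label. With nocodazole 39 of 131 genes were lower than with DMSO, against 9.69% of all genes. The whole group took 11.4 to 12.6% of counts with nocodazole against 13.4 to 17.4% with DMSO. That number of 39 ranged from 11 to 50 when single libraries were left out and was 2 with the 6 compared libraries alone. From 4 to 8 h 115 of 131 fell, against 16.7% of all genes.

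Ribosome biogenesis genes fell in smaller number. Of 24 genes 8 fell and none rose (median log2 change -0.38), against 17.9% and 20.7% of all genes. With the 6 compared libraries alone 18 fell, and 1667 genes in all were lower there. *NOP1*, the rRNA methyltransferase fibrillarin, had 404.9, 426.6 and 398.5 CPM at 4 h, against 985.9, 836.9 and 825.4 CPM at 0 h (log2 change -1.09). *GAR1*, of the pseudouridylation complexes, fell by 1.20, and *UTP4*, of the small subunit processome, had a log2 change of 0.09 and was not called. *NOP1* in *mad1Δ bub2Δ* cells averaged 733.4 ± 91.9 CPM at 0 h with nocodazole and 1356.9 ± 472.7 CPM with DMSO. In *cdc24-1 swe1Δ cdc20-1* cells 20 of 24 rose, against 20.3% of all genes, and all 24 had a lower change in *MAD1 BUB2* cells, against 10.8%.

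Other metabolic lists changed in both directions or had called members in small number. The counts that follow are to be read against 20.7% of all genes higher and 17.9% lower. Of 24 ergosterol genes 6 rose and 2 fell, and without the first 0 h library 3 rose. The number that rose was 10 with the 6 compared libraries alone (1738 genes in all). It was 12 by limma on log2(TPM + 1) (2280 genes in all). *ERG3*, the C-5 sterol desaturase, rose by 0.80 (SE 0.18, adjusted p = 0.00059). Of 16 genes of sulfur metabolism 4 fell and none rose, and 2 fell without the second 4 h library or the third 0 h library. The number that fell was 7 with the 6 compared libraries alone and 1 by limma. Of 19 amino acid genes 2 rose and 3 fell, and 1 fell when any single library was left out. Of 14 iron genes 4 rose and 2 fell, close to the 38.6% of all genes called. *SML1*, the inhibitor of ribonucleotide reductase, fell by 1.74 (SE 0.19, adjusted p = 1.2e-08) and *RNR4*, its small subunit, by 0.42, among 12 genes of nucleotide reduction and DNA damage, of which 2 rose and 3 fell, while *RNR3* and *HUG1*, which respond to DNA damage, were not called (log2 changes 0.49 and -0.11). Of 21 pheromone response genes 2 rose and 5 fell, 3 when single libraries were left out and 1 by limma.

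The 10 largest rises, among genes called, with at least 10 CPM in the higher time and libraries that did not overlap, were those of *PES4*, *YRO2*, *NCA3*, *YOR338W*, *PIR3*, *HSP12*, *GPM2*, *SRT1*, *ATG39* and *YLR035C-A*. *PES4*, which encodes an RNA-binding protein similar to poly(A)-binding protein, had 13.6, 17.5 and 10.2 CPM at 4 h, against 0, 0.327 and 0 CPM at 0 h. This is 284 counts against 2, a rate ratio of 123 with a 95% counting interval of 33.8 to 1020 that covers counting error only. In *mad1Δ bub2Δ* cells it averaged 2.14 ± 1.16 CPM at 4 h and 1.15 ± 0.465 CPM at 0 h, and in *cdc24-1 swe1Δ cdc20-1* cells 24.7 ± 4.26 CPM at 4 h and 2.5 ± 0.653 CPM at 0 h. *NCA3*, a member of the SUN family of wall proteins, had 85.7, 83.8 and 77.1 CPM at 4 h, against 0.215, 3.11 and 3.98 CPM at 0 h (log2 change 4.98 ± 0.38, SE, adjusted p = 2.3e-11). *YOR338W*, of unknown function, had 136.7, 138.1 and 134.5 CPM at 4 h, against 5.15, 3.6 and 4.83 CPM at 0 h. The 4 h libraries agreed closely for both. *SRT1*, an enzyme of dolichol synthesis, and *ATG39*, a receptor for autophagy of the nucleus, rose by 4.03 and 4.00. *YLR035C-A* is a Ty retrotransposon reading frame whose sequence recurs elsewhere in the genome, so its counts cannot be assigned to 1 copy.

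The 10 largest falls by the same rule were those of *SNG1*, *DSE1*, *DSE2*, *MEP2*, *DSE4*, *HO*, *YLL044W*, *HTA2*, *PRY3* and *YGR035C*. *HO*, the endonuclease gene of mating-type switching and a Swi5 target, had 9.64, 8.81 and 10.6 CPM at 4 h, against 113.3, 90.3 and 91.6 CPM at 0 h (log2 change -3.33 ± 0.31, SE, adjusted p = 8.2e-10). *PRY3*, another gene of the M/G1 list, had 23.9, 21.1 and 20.6 CPM at 4 h, against 194.4, 175 and 168.2 CPM at 0 h. Of the 10 genes that fell 4 were thus of the M/G1 list. *HO* averaged 2.99 ± 1.81 CPM at 4 h and 54.5 ± 20.3 CPM at 0 h in *mad1Δ bub2Δ* cells.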

How the data were processed

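RNA sequencing of poly(A)-selected RNA was analysed in 6 libraries of *MAD1 BUB2* cells and in the libraries they were compared with. Per the labels and the methods, reads were aligned with STAR to build R64 and quantified with Salmon, and the authors deposited estimated counts rounded to whole numbers without normalization. The authors also deposited log2(TPM + 1) values and the mean DNA content of each culture in arbitrary units, given here as kAU. Rounded estimates were treated as counts. Of 6843 features 6014 matched RefSeq locus tags. The library kit is not stated to mark strand, so overlapping genes on opposite strands can share reads.

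Counts were fitted with edgeR 4.0.16 in R 4.3.3 (TMM factors, quasi-likelihood test, filterByExpr) with a coefficient for each of 12 conditions over the 36 libraries of the *mad1Δ bub2Δ* test. Comparisons with *cdc24-1 swe1Δ cdc20-1* cells used all 72 libraries, and rRNA features stayed in. A gene was called at a Benjamini-Hochberg adjusted p under 0.05. Log2 changes are 4 h minus 0 h, and SE is the log2 change divided by the root of the F statistic. A difference in change is that of *MAD1 BUB2* cells minus that of the other cells. Exact permutation tests, two-sided, were used for DNA content. No pair of replicates agreed within sampling noise.

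The members and gene lists were chosen with earlier results of these data known, and the comparison of *mad1Δ bub2Δ* libraries at 0 h was added after the data were seen, as were the promoter window and its alternatives. Genes named are list members, *MAD1*, *BUB2* and the 10 largest rises and falls among genes called, with at least 10 CPM in the higher time and libraries that did not overlap. *HMRA1* and *HMLALPHA1* were chosen after their values were seen. Alternatives were DESeq2 1.42.0, limma 3.58.1 on log2(TPM + 1), RLE factors, other filters, thresholds and library sets, a culture block, removal of rRNA features and leaving out single libraries. The replicate number pairs the libraries because the methods state that the time points came from the same culture. Deviations from the condition means of same-numbered 4 h and 0 h libraries had correlations of 0.103, 0.042 and 0.076. The fit was tested on simulated counts with known changes between 4 h and 0 h. It recovered 73 of 100 changes of 1 log2 unit and 14 of 100 of 0.5, with 4 calls among unchanged genes. A gene that was not called may therefore still have changed by a small amount. Counting intervals cover counting error only. The promoter of 1 further gene and the shares of 1 further motif are not reported here.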

Additional observations from a re-analysis of the deposited data

Results flagged for a closer look

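The change from 0 to 4 h differed between *MAD1 BUB2* cells and the other cells for the named genes below, by a test of the difference in edgeR. Differences are in log2 units, as the change in *MAD1 BUB2* cells minus that in the other cells, with adjusted p-values. All of them use the same 6 *MAD1 BUB2* libraries.

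Against *mad1Δ bub2Δ* cells in nocodazole the change was higher for the G2/M genes *KIN3* (2.73, adjusted p = 1.4e-05), *DBF2* (2.31, adjusted p = 2.4e-07), *CLB1* (1.45, adjusted p = 0.013), *CDC20* (1.18, adjusted p = 0.0033) and *CLB2* (1.32, adjusted p = 0.0032). It was lower for the M/G1 genes *DSE1* (-2.36, adjusted p = 3.1e-05), *DSE4* (-2.35, adjusted p = 8.3e-06) and *CTS1* (-1.13, adjusted p = 0.0019), the histone genes *HTA2* (-3.71, adjusted p = 6.9e-09) and *HTB2* (-3.72, adjusted p = 1.1e-12), the securin gene *PDS1* (-1.60, adjusted p = 0.0012) and the kinesin gene *KIP1* (-0.69, adjusted p = 0.036). It was also lower for the resistance gene *SNG1* (-1.69, adjusted p = 0.0013). It was higher for *CYC1* (1.77, adjusted p = 0.0034), the wall protein genes *PIR3* (3.09, adjusted p = 0.0011) and *PST1* (2.97, adjusted p = 5.2e-05), *PES4* (5.89, adjusted p = 7.2e-06) and *NCA3* (3.02, adjusted p = 0.00012).

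Against *cdc24-1 swe1Δ cdc20-1* cells at 37 °C the change was higher for *KIN3* (1.24, adjusted p = 0.0041), *DSE1* (1.32, adjusted p = 0.033), *CYC1* (1.67, adjusted p = 0.00077), *PES4* (3.44, adjusted p = 0.0017) and *NCA3* (2.13, adjusted p = 0.0075), and lower for *SNG1* (-3.37, adjusted p = 1.5e-09). The temperature, the mating type and 3 alleles differ between these cells as well, and their part was not tested.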

How the results depend on the processing

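The number of genes called between 4 h and 0 h (2328) was 577 at a Bonferroni threshold and 951 with at least a 2-fold change, and 1915 to 1989 when single libraries were left out. The culture block called 2539, DESeq2 2442 and the 6 compared libraries alone 3405. The difference from *mad1Δ bub2Δ* cells (1545 genes) was called for 2633 by limma on log2(TPM + 1) (2412 higher, 221 lower, against 821 and 724), for 290 by Bonferroni, for 1793 with the block and for 1327 to 1639 without single libraries. That from *cdc20-1* cells (1537) was called for 2390 with the compared libraries alone, 330 by Bonferroni, 1672 with the block, 1174 by limma (820 higher, 354 lower, against 871 and 666) and 1273 to 1472 without single libraries. From 4 to 8 h (2034) the counts were 3265, 413, 2279, 1855 (1399 higher and 456 lower, against 1027 and 1007) and 1583 to 1733 in these settings. Between the *mad1Δ bub2Δ* libraries at 0 h (1014) they were 284 with the compared libraries alone, 164 by Bonferroni and 1071 by limma (748 higher and 323 lower, against 430 and 584). Without single libraries that count was 552 to 1316. It was 661 without the first and 564 without the second nocodazole library, and 592 and 552 without the first and the second DMSO library. No block could be fitted there, because each culture had 1 treatment. The culture block changed no direction of a named gene, and of the named calls between 4 h and 0 h it ended only that of *MF(ALPHA)1* (adjusted p = 0.052).

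Other settings were followed for 118 values, the changes of named genes between 4 h and 0 h and the differences from other cells listed in the part before this one. Of 1847 resulting values 1782 kept direction and side of the threshold, 48 lost the call, 9 gained it and 8 turned direction, the last in genes that were not called. These were *CLB2* (0.27 by limma, 0.001 without the first 4 h library, -0.141 to 0.001 without single libraries), *SIC1* (0.05 by limma), *BUB2* (0.25 by limma, 0.024 without the third 4 h library, 0.17 without the third 0 h library, -0.311 to 0.17 without single libraries) and *MAD1* (-0.004 without rRNA features, -0.008 without the second 4 h library, -0.008 to 0.073 without single libraries). *DOC1* and *HSP42* lost the call without single libraries, as did the differences of *KIP1* from *mad1Δ bub2Δ* cells and of *DSE1* from *cdc20-1* cells. Differences lost by limma alone were those of *CTS1* (-0.50, adjusted p = 0.23) and *SNG1* (-1.09, adjusted p = 0.06) from *mad1Δ bub2Δ* cells and that of *PES4* from *cdc20-1* cells (0.16, adjusted p = 0.88). Of 450 list counts 73 moved by over 1.5 times. The DNA content difference was 29.6 to 31.4 kAU when single cultures were left out and 30.5 kAU within cultures. The cause of these differences was not tested.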

Other observations

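Genes specific to *MATα* cells were read in these *MATa* cultures. *STE3*, the a-factor receptor of α cells, had 9.03, 10.2 and 8.6 CPM at 4 h, against 0, 0.981 and 0.71 CPM at 0 h, and was 15.7 ± 1.15 CPM at 8 h. The times did not overlap (log2 change 3.91 ± 0.62, SE, edgeR adjusted p = 8.6e-06), and these were 191 counts against 11. *MF(ALPHA)1*, an α-factor gene, had 30 counts at 4 h against 3 at 0 h, a rate ratio of 8.67 with a 95% counting interval of 2.7 to 44.4. It was called (adjusted p = 0.045), but not with the culture block or without single libraries. *HMLALPHA1* had 0 counts at both times, which allows up to 3. In *MATα cdc24-1 swe1Δ cdc20-1* cells at 4 h the counts were 4668 for *STE3*, 35253 for *MF(ALPHA)1* and 580 for *HMLALPHA1*, so there were 0.132 counts of *STE3* for each of *MF(ALPHA)1*, against 6.37 in *MAD1 BUB2* cells at 4 h. *STE2*, the receptor of a cells, had 689, 634.5 and 626.5 CPM at 4 h, against 448.9, 517.9 and 462 CPM at 0 h, and its call (log2 change 0.46, adjusted p = 0.015) was lost without single libraries. *STE3* averaged 1.53 ± 0.927 CPM at 4 h and 1.69 ± 0.93 CPM at 0 h in *mad1Δ bub2Δ* cells.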
